A study of Mus musculus with 5 samples.

Results

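The tumour suppressor p53, encoded in the mouse by Trp53, was examined together with 9 of its target genes in the mouse neuroblastoma line N2a, in which a knockdown was made of the RNA- and DNA-binding protein gene Ewsr1. The 10 genes are Trp53, Mdm2, Cdkn1a, Ccng1, Trp53inp1, Zmat3, Ei24, Sesn1, Phlda3 and Gtse1, picked by name from 54838 listed genes. The comparison asks whether Ei24, a p53-induced gene that was higher after the knockdown, moved alone or with the other targets. Libraries came from cells given an siRNA against Ewsr1 (siEwsr1, n = 3) or a control siRNA (siCtrl, n = 2). Both groups are the same line, so both carry whatever alterations of the p53 pathway N2a cells have. Per the labels, 50000 cells were transfected with lipid in 2 pulses at an siRNA concentration written as 100 µM, and RNA was taken 24 hours after the last pulse. No agent that damages DNA is named in the labels, the sources used here do not give the siRNA sequences, and nothing says whether replicates came from separate cultures. The p-values below therefore speak of the variation among these 5 libraries, part or all of which may be technical.

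p53 is a transcription factor that is kept scarce in unstressed cells by the ubiquitin ligase Mdm2 and accumulates after DNA damage and other stress. It binds paired copies of a short palindromic element near its target genes and raises their transcription, which can lead to cell cycle arrest, repair or death. Mdm2 is itself a target, so the pair forms a negative feedback loop, and p53 is regulated largely at the level of protein, which an RNA measurement does not see.

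Each library held between 15045774 and 21339459 reads counted in genes. Levels are given as RPKM, counted reads scaled to the exonic length of the gene and to the library total, and 14884 genes with 10 or more reads in at least 2 libraries were tested. A gene is said to be called where the adjusted p of limma over all genes tested was below 0.05. All 10 genes passed the read filter. Ewsr1 itself, the targeted gene, had 35.7, 36.3 and 37.6 RPKM in siEwsr1 and 71.7 and 72.3 RPKM in siCtrl. Its RNA fell by 0.96 in log2 units (adjusted p = 8.10e-04, SE 0.08, limma), or by 48.4%. On the first principal component, which held 45.4% of the variance, siEwsr1 replicate 3 (-0.45) lay between the other siEwsr1 libraries (16.5 and 33.9) and the siCtrl libraries (-21.2 and -28.9). Calls among the 10 genes and the genes named from other lists that change without that library are given with and without it. Markers of sympathetic neuroblasts were present, with 14 of 17 tested and a summed level of 1065 to 1190 RPKM in siEwsr1 and 998 to 1011 RPKM in siCtrl. Summed fibroblast markers reached 24.6 to 31.4 RPKM in siEwsr1 and 36.7 to 36.9 RPKM in siCtrl, with Col3a1 and Lum at 0 and nearly all of the sum from 1 gene, Fbln1 (23.4 to 30.01 RPKM in siEwsr1, 33.5 RPKM in both siCtrl libraries). Glial and blood markers summed to at most 1.42 RPKM in any library. The neuroblast genes called higher included Isl1, Chgb and Mycn, and the fibroblast marker Acta2 was called lower (limma); their part in the results below was not tested. In bulk RNA of this kind, fewer cells of a type and less RNA per cell cannot be told apart.

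The promoters of these genes are shown first because p53 targets are known for the element that p53 binds. RefSeq promoters (GRCm38.p6, 250 bases before to 50 after the start) were at hand for 8 of the 10 genes. The search was for the degenerate p53 half-site consensus of 10 bases, which is its own reverse complement, so that a match on one strand is a match on both. Counting every window of a gene, a half-site occurred in 7 of the 8 genes, against 9.55% of all 27025 genes with a promoter in the table and 8.36% of all windows. Of the p53 targets on the further lists described below, 7 of 42 with a promoter had one (16.7%), as did 3 of 11 DREAM-repressed genes (27.3%), and these shares were not tested against each other. Trp53inp1 and Zmat3 had no entry. The lines below give each match in capitals with 10 bases on either side, read on the strand of the gene.
Ei24: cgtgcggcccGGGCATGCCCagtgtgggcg
Mdm2: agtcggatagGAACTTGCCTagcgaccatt
Trp53: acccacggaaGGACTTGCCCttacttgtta
Ccng1: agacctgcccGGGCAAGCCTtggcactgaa
Gtse1: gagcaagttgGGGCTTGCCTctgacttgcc
Sesn1: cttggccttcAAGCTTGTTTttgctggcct
Cdkn1a, upstream copy: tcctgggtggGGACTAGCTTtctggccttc
Cdkn1a, downstream copy: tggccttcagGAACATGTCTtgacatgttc
The Ei24 stretch lies at chr9:36797325-36797354 on the minus strand, and its half-site takes up the 10 bases just before the RefSeq start. The stretches of Mdm2 (chr10:117710925-117710954, minus strand) and Ccng1 (chr11:40755452-40755481, minus strand) lie farther upstream, with half-sites at -186 and -185 from the start. Those of Trp53 (chr11:69580274-69580303) and Sesn1 (chr10:41887256-41887285) are on the plus strand, with half-sites at -75 and -173, whereas that of Gtse1 (chr15:85859945-85859974, plus strand) lies after the start, at 10. Cdkn1a holds 2 matches (chr17:29090896-29090925 and chr17:29090918-29090947, plus strand), separated by 12 bases. That is the only pair of exact matches with a spacer of at most 13 bases among the 8 genes, and 0.074% of all genes have one. Pairs in which a half-site departs from the consensus at any base were not counted, in Cdkn1a or elsewhere. A match is a stretch of letters and not a measured binding site. Half-sites are thus shared by Ei24 and by 6 genes that were not called, described next, while the promoter of Phlda3 in the table holds none.

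Of the 10 genes, 1 was called higher in siEwsr1, Ei24, beside 2.47% of all genes tested, and 0 were called lower, beside 2.69% (limma; 5.16% in either direction). At an unadjusted p under 0.05, 3 were higher and 2 lower, where 22.1% of all genes passed in either direction. Limma with voom weights also called 1 higher and 0 lower, in a fit that called 5.67% of all genes. The level of all 3 siEwsr1 libraries lay above both siCtrl libraries for 4 genes, Ei24, Sesn1, Ccng1 and Mdm2, and below both for 2, Phlda3 and Gtse1. Over all genes tested these shares were 19.9% and 19.9%. The median log2 fold change of the 10 genes was 0.09, and that of all genes was -0.01. Without Ei24 the median was 0.08, and the other 9 ranged from -0.66 to 0.34.

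**Figure D1:**
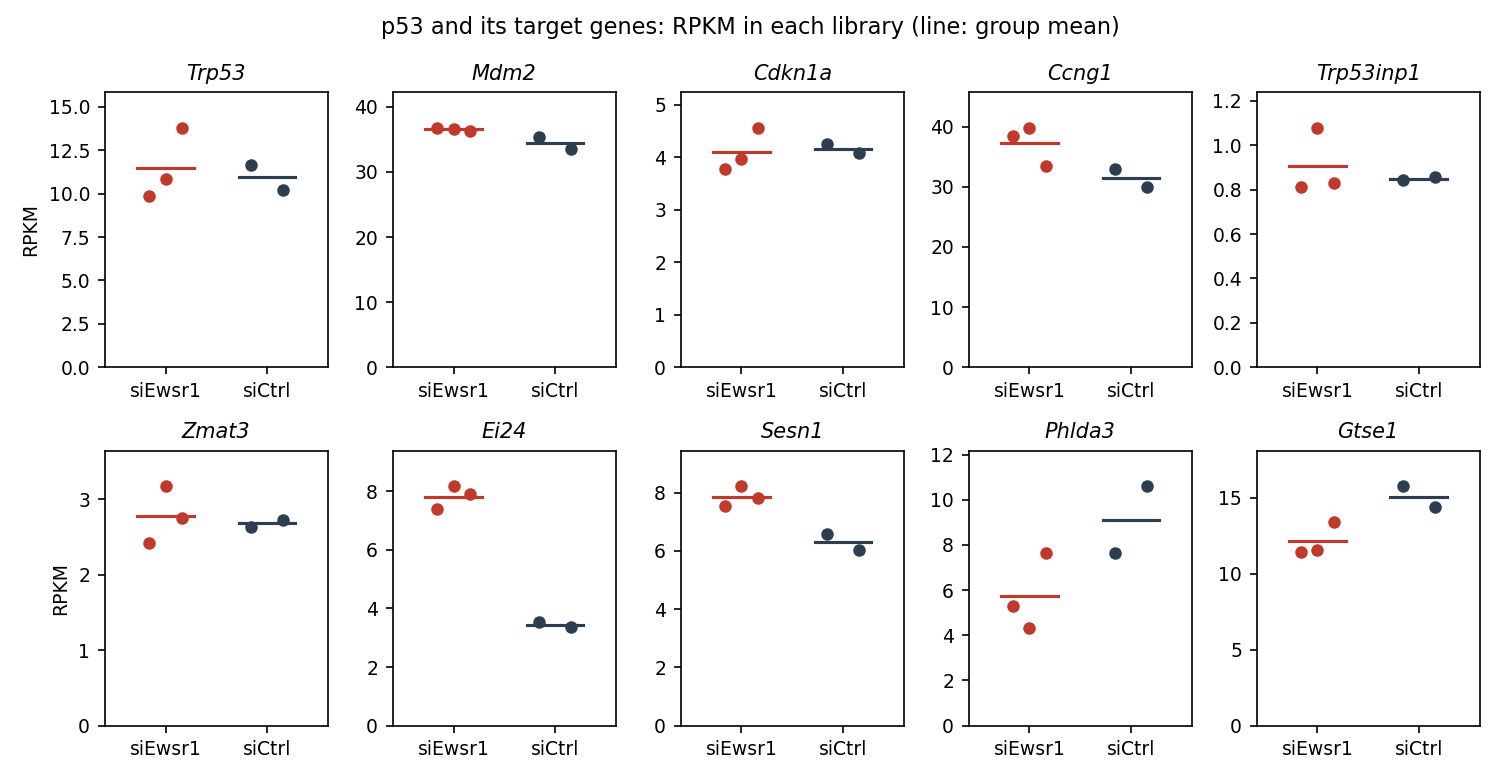
Level of Trp53 and 9 p53 target genes in each library, in RPKM on a linear axis from 0, with siEwsr1 (3 libraries) left of siCtrl (2 libraries) and a line at each group mean. Ei24 stands at 7.39 to 8.16 RPKM in siEwsr1 and at 3.36 and 3.53 RPKM in siCtrl. The other 9 genes show smaller differences relative to their level, or overlapping groups. In RPKM itself the difference of Ccng1 is larger than that of Ei24 (group means 37.2 in siEwsr1 and 31.5 in siCtrl).

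Trp53 RNA was measured at 9.89, 10.8 and 13.8 RPKM in siEwsr1 and at 11.7 and 10.2 RPKM in siCtrl. The groups overlapped, with siEwsr1 replicate 3 the highest library and siEwsr1 replicate 1 the lowest. The log2 fold change was 0.08 (SE 0.14, 95% interval -0.22 to 0.39, adjusted p = 0.772, limma), an interval that still allows a moderate change in either direction. Wrap53, the neighbouring gene on the other strand (log2 fold change 0.21, adjusted p = 0.462, limma), does not overlap Trp53 in GENCODE M21, and the processed pseudogene Trp53-ps had at most 3 reads in any library.

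Mdm2, the ligase that marks p53 for degradation, had 36.8, 36.6 and 36.3 RPKM in siEwsr1 and 35.4 and 33.5 RPKM in siCtrl. All siEwsr1 libraries were above both siCtrl libraries, but by little (log2 fold change 0.11, SE 0.09, adjusted p = 0.504, limma). Ccng1 encodes cyclin G1, which works with protein phosphatase 2A on Mdm2 and so belongs to the same feedback. Its levels of 38.5, 39.8 and 33.4 RPKM in siEwsr1 and 33.0 and 30.01 RPKM in siCtrl did not overlap either, although siEwsr1 replicate 3 stood close to siCtrl replicate 1. The log2 fold change of Ccng1 was 0.26 (SE 0.11, 95% interval 0.02 to 0.50, adjusted p = 0.196, limma). Gtse1, a cell cycle protein that binds p53 and carries it out of the nucleus, had 11.4, 11.6 and 13.4 RPKM in siEwsr1 and 15.8 and 14.4 RPKM in siCtrl. Each siEwsr1 library was below each siCtrl library, by -0.29 in log2 units (SE 0.11, 95% interval -0.54 to -0.04, adjusted p = 0.166, limma). None of these 3 genes of the p53 control loop was called, and they pointed in different directions.

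Cdkn1a encodes p21, the inhibitor of cyclin-dependent kinases through which p53 arrests the cell cycle. It had 3.78, 3.96 and 4.56 RPKM in siEwsr1 and 4.25 and 4.08 RPKM in siCtrl. The siCtrl values lay inside the siEwsr1 range, and the log2 fold change was -0.01 (SE 0.14, 95% interval -0.31 to 0.30, adjusted p = 0.987, limma). Trp53inp1, a nuclear stress protein that favours p53-driven death and autophagy, was the least abundant of the 10 genes, with 0.811, 1.08 and 0.831 RPKM in siEwsr1 and 0.842 and 0.856 RPKM in siCtrl. Only siEwsr1 replicate 2 stood above siCtrl, the other siEwsr1 libraries being slightly below it (log2 fold change 0.09, SE 0.19, adjusted p = 0.815, limma). Zmat3, a zinc finger protein that binds RNA, likewise had its highest level in siEwsr1 replicate 2 and its lowest in siEwsr1 replicate 1, with 2.42, 3.17 and 2.76 RPKM in siEwsr1 and 2.63 and 2.73 RPKM in siCtrl. The groups overlapped as well (log2 fold change 0.07, SE 0.13, adjusted p = 0.806, limma).

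Sesn1 encodes sestrin 1, which restrains mTORC1 and oxidative stress. It had 7.54, 8.21 and 7.83 RPKM in siEwsr1 and 6.58 and 6.02 RPKM in siCtrl. The groups did not overlap, and its log2 fold change of 0.34 was the highest among the 9 genes beside Ei24 (SE 0.11, 95% interval 0.09 to 0.59, adjusted p = 0.114, limma). A low-level transcript inside Sesn1 on the same strand, 9930024M15Rik, reached at most 0.310 RPKM in siEwsr1 and 0.514 RPKM in siCtrl. Phlda3 is a repressor of the survival kinase Akt. It had 5.29, 4.33 and 7.63 RPKM in siEwsr1 and 7.65 and 10.6 RPKM in siCtrl. Its siEwsr1 libraries were all below siCtrl, but siEwsr1 replicate 3 and siCtrl replicate 1 were nearly equal, and both groups were widely spread. The log2 fold change of Phlda3 was -0.66 (SE 0.23, 95% interval -1.16 to -0.15, adjusted p = 0.128, limma), the lowest of the 10.

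Ei24 encodes a membrane protein of the endoplasmic reticulum that is induced by p53, binds Bcl2 and is needed for autophagy. In GENCODE M21 it lies at chr9:36779159-36797393 on the minus strand of GRCm38. It had 7.39, 8.16 and 7.89 RPKM in siEwsr1 and 3.53 and 3.36 RPKM in siCtrl. These values rest on 541, 848 and 671 reads in siEwsr1 and 271 and 283 reads in siCtrl. Every siEwsr1 library was more than double either siCtrl library, and the spread within each group was small. Ei24 rose by 1.18 in log2 units (SE 0.11, 95% interval 0.93 to 1.43, adjusted p = 9.56e-04, limma), or by 127%. That was rank 36 of 14884 by log2 fold change and rank 10 by p. Leaving out siCtrl replicate 2 ended the call, with a log2 fold change of 1.13 and adjusted p = 0.0557 (limma), in a fit that called 0.0347% of all genes and 0 of these 10. With any other single library left out, Ei24 was called (adjusted p from 1.23e-06 to 0.0356, limma). Without siCtrl replicate 1 or 2, the remaining siCtrl library is taken to vary like the other group.

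One gene overlaps Ei24 in the annotation, and its level was low. This antisense gene, Gm26787, which lies over the 3′ end of Ei24, had 0.109, 0.231 and 0.659 RPKM in siEwsr1 and 1.04 and 0.665 RPKM in siCtrl, and so was not higher in siEwsr1. The next genes on the same strand, Stt3a (log2 fold change -0.08, adjusted p = 0.685, limma) and Chek1 (0.21, adjusted p = 0.345, limma), do not overlap Ei24 and were not called. Without siEwsr1 replicate 3, Chek1 was called higher (0.33, adjusted p = 0.00465, limma).

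Ei24 was set beside the other 9 genes within each library, as the log2 level minus the mean log2 level of siCtrl. In siEwsr1 replicates 1, 2 and 3 this difference was 1.11, 1.26 and 1.17 for Ei24. For the other 9 genes its median was -0.11, 0.12 and 0.07, so that Ei24 exceeded the median by 1.22, 1.14 and 1.10. The next highest gene differed from library to library: Ccng1 at 0.32 in replicate 1, Sesn1 at 0.41 in replicate 2 and Trp53 at 0.33 in replicate 3. The lowest was Phlda3 in all 3, at -0.73, -1.005 and -0.24. In siCtrl replicates 1 and 2 Ei24 differed from the median of the other 9 genes by -0.0047 and 0.0047. The siCtrl values mirror each other by construction, since the mean of the same libraries is the reference. No p is given for the gap of Ei24, since the genes were put together with results of these data known.

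**Figure D2:**
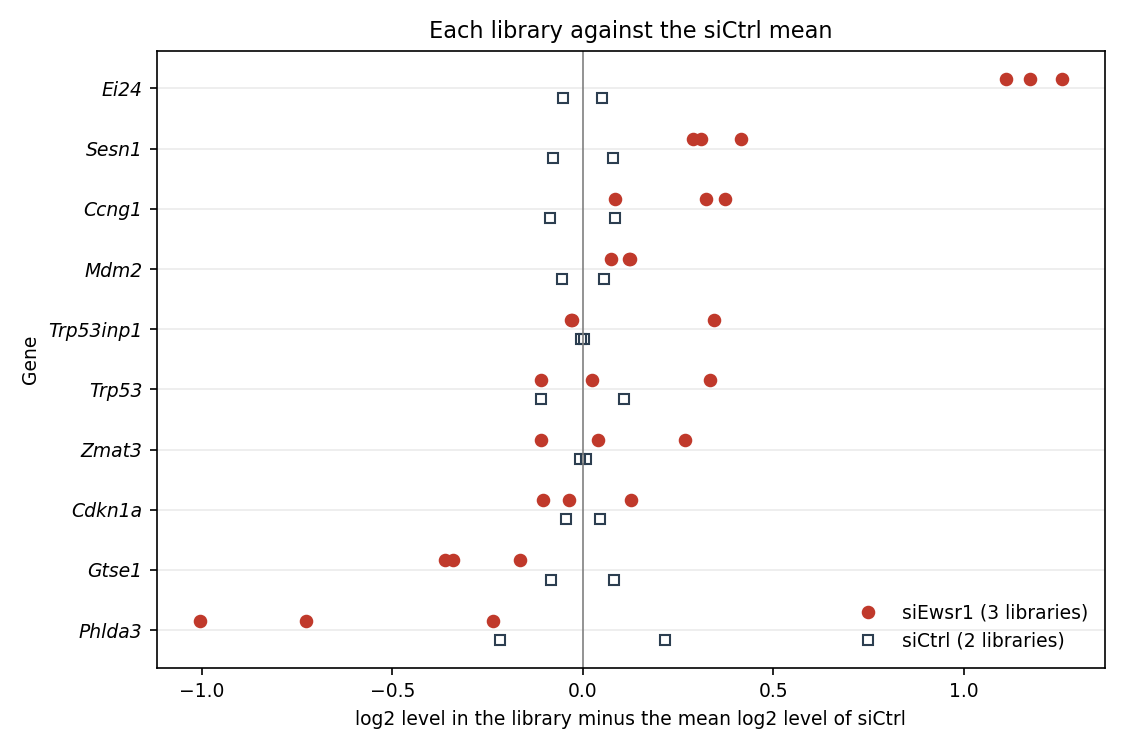
Log2 level of each gene in each library minus the mean log2 level of siCtrl, on the x axis, with genes on the y axis ordered by fold change, siEwsr1 libraries as filled circles above and siCtrl libraries as open squares below. Ei24 is at 1.11 to 1.26 in siEwsr1, clear of every other gene, the highest of which is Sesn1 at 0.41.

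The order of levels shows the same shift. RPKM is taken per annotated exonic length, so ranks between genes depend on that annotation. By mean RPKM, Ei24 was rank 6 of the 10 genes in siEwsr1 (7.81 ± 0.39, SD, n = 3) and rank 8 in siCtrl (3.44 ± 0.12, SD, n = 2). In siEwsr1 its libraries overlapped those of its neighbours in the order, Sesn1 (7.86 ± 0.34) and Phlda3 (5.75 ± 1.70). In siCtrl they overlapped neither Cdkn1a above it (4.16 ± 0.12) nor Zmat3 below it (2.68 ± 0.07). Ccng1 and Mdm2 were the most abundant genes in both groups, at 37.2 ± 3.39 and 36.5 ± 0.25 RPKM in siEwsr1 and 31.5 ± 2.12 and 34.5 ± 1.34 RPKM in siCtrl. Gtse1 (12.1 ± 1.09 RPKM in siEwsr1, 15.1 ± 0.98 in siCtrl) and Trp53 (11.5 ± 2.04 in siEwsr1, 10.9 ± 0.999 in siCtrl) followed. The ranges of that pair overlapped in siEwsr1 and not in siCtrl.

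The calls among the 10 genes depended on siEwsr1 replicate 3. Without it, 5 were called, in a fit that called 26.0% of all genes. The 4 genes added to Ei24 were Sesn1 (log2 fold change 0.35, adjusted p = 0.0204), Ccng1 (0.34, adjusted p = 0.00233), Phlda3 (-0.87, adjusted p = 0.00140) and Gtse1 (-0.35, adjusted p = 0.0103; limma). With all libraries in, the genes whose groups did not overlap were these 4, Ei24 and Mdm2. Ei24 stayed at 1.18 without that library, so its difference was over 3 times that of Sesn1 with it and without it. Trp53 changed sign without it, to -0.05 (adjusted p = 0.762, limma).

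**Figure D3:**
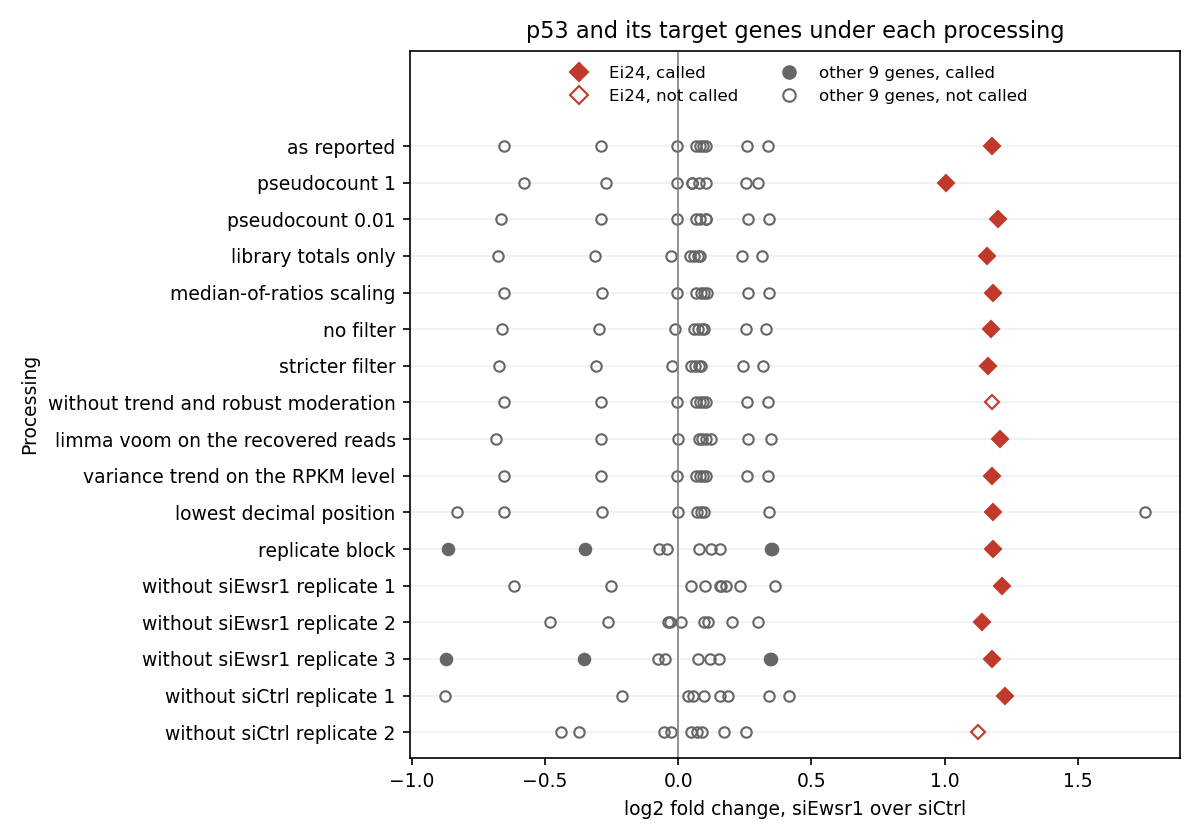
Log2 fold change (siEwsr1 over siCtrl) of Ei24 (diamonds) and of the other 9 genes (circles) as reported and under 16 other ways of processing, with filled symbols where the gene was called by limma. Ei24 lies between 1.01 and 1.23 throughout, and the other genes reach at most 0.41 except Mdm2 at 1.75 where each value takes its lowest possible decimal position.

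To see whether the wider pathway moved, 92 further genes in 7 lists were examined: p53 control, 5 classes of p53 targets, and cell cycle genes that the DREAM complex represses when p21 is induced. Of these, 75 were tested, 3 were called higher and 3 lower (limma, beside 2.47% and 2.69% of all genes), and the median log2 fold change was -0.02. The 5 target classes alone held 43 tested genes, of which 2 were called higher and 3 lower, with a median of -0.03 beside -0.01 for all genes. The targets that were called did not share a direction. These counts depended on single libraries. Without siEwsr1 replicate 3, 9 of 74 tested genes of the 7 lists were called higher and 11 lower, of which 4 and 9 were among the targets (26.0% of all genes were called in that fit). Without siEwsr1 replicate 1, 0 of the targets were called, in a fit that called 0.58% of all genes (limma). Without siEwsr1 replicate 2, 1 target was called higher and 3 lower, where 4.2% of all genes were called (limma). Leaving out either siCtrl library leaves 1 in that group, so no counts of targets are given for those fits. With 1 library left out at a time, the median of the target classes lay between -0.064 and 0.048.

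Among 19 tested genes of p53 control, Atm was the one called. Atm is the kinase that is activated by DNA double-strand breaks and phosphorylates p53. It had 19.8, 19.3 and 17.5 RPKM in siEwsr1 and 10.01 and 11.2 RPKM in siCtrl, and it rose by 0.85 (SE 0.10, adjusted p = 0.00223, limma). The call was lost without siCtrl replicate 1 (adjusted p = 0.0817) or siCtrl replicate 2 (adjusted p = 0.0666, limma). Sirt1, a deacetylase of p53, and Hipk2, a kinase that phosphorylates it, had log2 fold changes of 0.39 and 0.38 and were not called (adjusted p = 0.0607 and 0.118, limma). Without siEwsr1 replicate 3, Sirt1 was called higher (0.44, adjusted p = 9.07e-04, limma). The list median was -0.02. Trp63 and Trp73, the relatives of p53, were listed at 0 in every library.

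With all libraries in, genes of arrest and death gave no call by limma or by limma with voom weights, but without siEwsr1 replicate 3, 1 arrest target and 3 death targets were called lower. Of 5 tested arrest targets, 1 had an unadjusted p under 0.05, Gadd45a (log2 fold change 0.38, adjusted p = 0.209, limma), a stress sensor, and the list median was 0.13. Of 10 tested death targets none had an unadjusted p under 0.05, and the median was -0.11. The largest differences there were those of Steap3 (-0.35), a metalloreductase, Bax (-0.24), the pore-forming effector of mitochondrial death, and Trp53i11 (-0.23), with adjusted p of 0.258, 0.384 and 0.254 (limma). Without siEwsr1 replicate 3, these were Steap3 at -0.48 (adjusted p = 0.0213), Bax at -0.39 (adjusted p = 0.00778) and Trp53i11 at -0.32 (adjusted p = 0.0129, limma), and all 3 were called lower. The death list median was then -0.24, and 0.018 without siEwsr1 replicate 2. The arrest target that was called lower without siEwsr1 replicate 3 was the kinase gene Plk3, at -0.38 (adjusted p = 0.0382), against -0.23 with it (adjusted p = 0.475, limma). Several classic targets were too low to test: Pmaip1, Tnfrsf10b, Fas, Perp, Plk2 and Sfn had at most 14 reads in any library.

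With all libraries in, the metabolic class held the 3 targets that were called lower. Sesn2, the relative of Sesn1 that also restrains mTORC1 and is induced by amino acid shortage and endoplasmic reticulum stress as well as by p53, had 10.7, 9.47 and 13.3 RPKM in siEwsr1 and 19.2 and 19.8 RPKM in siCtrl. It fell by 0.79 (SE 0.13, adjusted p = 0.00968, limma), whereas Sesn1 had 0.34 and was not called. Ddit4, another inhibitor of mTORC1, had 55.6, 47.5 and 60.1 RPKM in siEwsr1 and 85.5 and 74.5 RPKM in siCtrl and fell by 0.54 (SE 0.11, adjusted p = 0.0277, limma). Abhd4, a lipase that acts on N-acyl phospholipids, had 1.84, 2.49 and 2.65 RPKM in siEwsr1 and 3.81 and 4.28 RPKM in siCtrl and fell by 0.76 (SE 0.18, adjusted p = 0.0388, limma). In all 3 genes the groups did not overlap. Each of the 3 calls was lost without siEwsr1 replicate 1, siCtrl replicate 1 or siCtrl replicate 2 (adjusted p from 0.0726 to 0.398, limma). With a pseudocount of 1 or with the variance trend on RPKM, Sesn2 was called while Ddit4 and Abhd4 were not (adjusted p from 0.0706 to 0.0851, limma). The other 8 tested metabolic targets were not called with all libraries in, and the list median was -0.12. At an unadjusted p under 0.05, 3 genes of the class were higher and 4 lower (limma, beside 22.1% of all genes in either direction). Without siEwsr1 replicate 3, Tigar (0.32, adjusted p = 0.0193) and Lpin1 (0.42, adjusted p = 0.0249) were called higher and Ak1 (-0.21, adjusted p = 0.0379, limma) lower. With it these were 0.31, 0.42 and -0.14 (adjusted p = 0.104, 0.111 and 0.425, limma). The other 8 also include Pltp, a phospholipid transfer protein named here after its value was seen. It had the lowest log2 fold change of the class, -0.88 (SE 0.29, adjusted p = 0.107, limma).

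Repair targets and the remaining class gave 1 gene each. Ercc5, the nuclease that cuts on the 3′ side of a lesion in nucleotide excision repair, had 11.9, 10.9 and 11.2 RPKM in siEwsr1 and 8.57 and 8.75 RPKM in siCtrl and rose by 0.40 (SE 0.09, adjusted p = 0.0375, limma). Its call was lost without any 1 library other than siEwsr1 replicate 3 (adjusted p from 0.0502 to 0.369, limma), with a pseudocount of 1 (adjusted p = 0.0617) and with the variance trend on RPKM (adjusted p = 0.0835, limma). Triap1, a small protein that limits apoptosis, had 11.4, 11.9 and 12.4 RPKM in siEwsr1 and 7.64 and 7.48 RPKM in siCtrl and rose by 0.67 (SE 0.14, adjusted p = 0.0267, limma). That call was lost without siEwsr1 replicate 1, siCtrl replicate 1 or siCtrl replicate 2 (adjusted p from 0.118 to 0.319, limma). Trp53cor1, a long noncoding RNA of the Cdkn1a locus known as lincRNA-p21, had 0.249, 0.201 and 0.383 RPKM in siEwsr1 and 0.765 and 0.665 RPKM in siCtrl, from at most 25 reads in siEwsr1 and 45 in siCtrl. Its groups did not overlap, and its difference of -1.12 in log2 units (SE 0.30, adjusted p = 0.0607, limma) missed the threshold. It was called lower with voom weights (adjusted p = 0.0475) and without siEwsr1 replicate 3 (adjusted p = 0.00767, limma). Cdkn1a itself, beside it on chromosome 17, had overlapping groups.

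With all libraries in, none of 13 tested genes repressed through DREAM was called by limma or by limma with voom weights, 1 had an unadjusted p under 0.05, and the median was -0.02. That gene was Birc5, the apoptosis inhibitor survivin, with 40.2, 39.4 and 42.2 RPKM in siEwsr1 and 34.8 and 35.6 RPKM in siCtrl (log2 fold change 0.23, adjusted p = 0.147, limma). Without siEwsr1 replicate 3 it was called higher (0.21, adjusted p = 0.0301, limma). Plk1 (-0.20, adjusted p = 0.388) and Foxm1 (-0.18, adjusted p = 0.434, limma), a mitotic kinase and a mitotic transcription factor, had overlapping groups. Without siEwsr1 replicate 3 both were called lower, Plk1 at -0.32 (adjusted p = 0.0134) and Foxm1 at -0.31 (adjusted p = 0.0144, limma). In that fit 2 genes of the list were called higher and 2 lower.

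**Figure D4:**
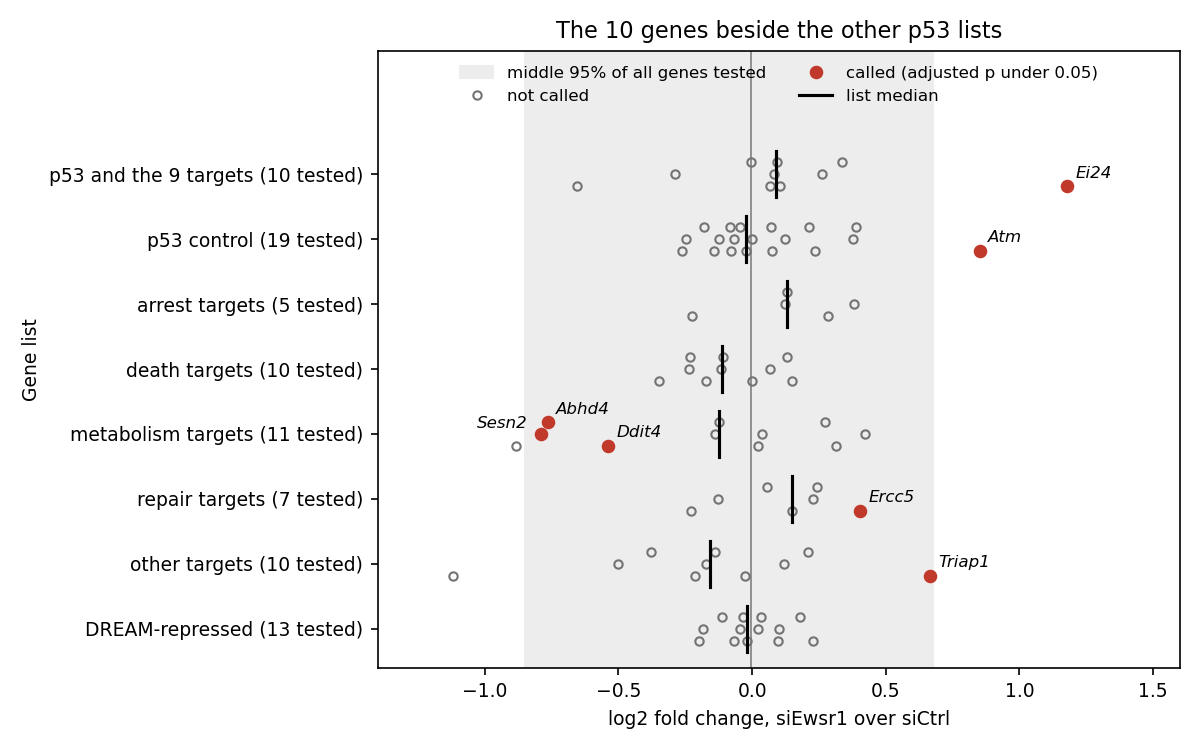
Log2 fold change (siEwsr1 over siCtrl) of each tested gene in the 10-gene group and in 7 further p53 lists, with genes called by limma filled and named, a black line at each list median and a grey band over the middle 95% of all genes tested. Ei24 at 1.18 and Atm at 0.85 lie to the right of the band, and Sesn2, Ddit4 and Abhd4 lie left of 0 but within the band. Trp53cor1 at -1.12 and Pltp at -0.88, which were not called, lie to the left of the band.

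The genes whose pattern over the 5 libraries was closest to that of Ei24, by root mean square difference in log2 level minus the siCtrl mean among 14874 genes, were E2f5 (0.0937), Rab5if (0.0976), Snrpe (0.104), AW046200 (0.114) and Mtfr1l (0.119). E2f5 encodes an E2F transcription factor of the repressor kind and Snrpe a core protein of the spliceosome. These 5 are the nearest by choice. For the other 9 genes of the group the same measure ran between 0.652 (Sesn1) and 1.46 (Phlda3), with a median of 0.862, beside a median of 0.935 over the 14874 genes. AW046200 had at most 15 reads in any library and was not called (adjusted p = 0.160, limma), and the other 4 of these genes were called higher with log2 fold changes of 1.04 to 1.22. None of the 5 is on the lists above.

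The heptamer TCACTGC was picked in earlier work on these same fold changes because it is frequent in the annotated 3′ UTRs of genes that were higher in siEwsr1, and its shares are therefore a description. It occurred in 40.6% of coding genes called higher and 16.8% of all tested coding genes. A second heptamer picked in the same way, GCAATTT, occurred in 27.5% of coding genes called lower and 9.28% of all tested, and in none of the 10 genes or the other called p53 genes. Ei24 does not carry TCACTGC, nor do Atm, Ercc5 or Sesn2. Of the 10 genes, Zmat3 and Sesn1 do, and of the other called p53 genes, Triap1, Ddit4 and Abhd4 do, in both directions of change.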

How the data were processed

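RNA of 5 libraries (siEwsr1, n = 3; siCtrl, n = 2) was measured with a stranded total RNA kit after removal of ribosomal RNA, and samples were grouped by their titles. Per the submitters' processing notes, STAR 2.5.2b, featureCounts 1.5.1, edgeR and GRCm38 were used. The annotation release, strand setting and handling of reads with several positions are not given in those notes or labels. The authors deposited 1 value per gene and library with no unit in the header. The deposited values behave as RPKM whose decimal point was lost at 1 and above, so their unit was recorded as other than RPKM.

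Gene names and exonic lengths came from GENCODE M21, which held 54809 of the 54838 identifiers. Counted reads per library were solved from the commonest products of value and length, and the intact values below 1 then gave whole reads (tolerance 1e-06) for 98.5 to 98.6% of genes. Each lost decimal point was put where the value gives whole reads, and where several places do, where the 5 libraries lie closest together. No group label was used, and odds of at least 20 were required. The restored reads fell short of the library totals by 0.378 to 0.405%, and 122 genes with lower odds, Daxx among them, were left out. All 10 genes took the annotated length, the lowest odds were 2366 (Ei24), and Mdm2 and Ccng1, like Ewsr1, needed a place above the lowest in at least 1 library. This choice favours small differences: on simulated data every kept value was right, but 50 of 90 genes with a 4-fold change were kept.

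RPKM values were scaled by a trimmed mean of ratios (factors 0.985 to 1.02) and fitted as log2(RPKM + 0.1) with limma 3.58.1 in R 4.3.3 (trend and robust moderation, no covariate, two-sided, Benjamini-Hochberg over 14884 genes). Fold changes are on that scale, which understates changes of low genes. The variance trend followed the mean log2 reads. On simulated counts for 14884 genes the fit called 41 of 50 genes changed 2-fold and 30 of 50 changed 1.5-fold, with 12 false calls. An exact permutation test of 3 against 2 libraries cannot go below 0.1, so none is given. Intervals cover the spread between libraries.

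The 10 genes, the lists and the tests were chosen with earlier results of these data known. The variance trend on reads was kept after both its calls and those of the trend on RPKM had been seen, and the settings that place decimal points were adjusted over several rounds after seeing simulated recovery and which genes, Ewsr1 among them, were kept. Named beyond the 10 genes were every called gene of a list, filled up to 3 by the largest absolute log2 fold change, and the 5 genes closest to Ei24. Genes at the loci (Gm26787, Wrap53, Stt3a, Chek1, 9930024M15Rik), Trp53-ps, called markers, Pltp, Tigar, Lpin1, Ak1 and genes too low to test were named after values were seen. Counts differed between every pair of libraries by more than counting noise (chi-square per degree of freedom 7.95 to 50.1).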

Additional observations from a re-analysis of the deposited data

How the results depend on the processing

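Ei24 kept its direction under all 16 alternatives, with log2 fold changes of 1.01 to 1.23 and adjusted p of 2.91e-11 to 0.0687 (limma). Its call was lost without trend and robust moderation (1.18, adjusted p = 0.0687) and without siCtrl replicate 2 (1.13). Without 1 library at a time Ei24 had 1.13 to 1.23 and Ewsr1 -0.97 to -0.94. Ewsr1 lost its call in the same fits (adjusted p = 0.0687 at -0.96, and 0.0542 at -0.97, limma) and turned to 0.70 (adjusted p = 0.774) when each value took its lowest possible decimal position. That setting also turned Ccng1 (-0.83), Atm (-0.23), Birc5 (-1.96) and Mtfr1l (-0.041), through values read a power of 10 apart between libraries. Genes called higher and lower numbered 368 and 400 as reported, 167 and 200 with a pseudocount of 1, 20 and 41 with no filter, 0 and 0 without moderation (1313 and 1462 at an unadjusted p under 0.05), 116 and 139 with the variance trend on RPKM, added after seeing the data, and 49 and 3 at the lowest decimal position. Leaving out 1 library gave 2 to 1881 higher and 3 to 1893 lower, and 0 to 3 of the 10 genes higher and 0 to 2 lower. Without moderation 0 of the 10 were called higher. The other lists held 75 tested genes, or 84 with no filter. Of these, 0 were called with no filter, without moderation or at the lowest decimal position. With a pseudocount of 1 or the variance trend on RPKM, 3 were called (Sesn2, Triap1, Atm). The gap of Ei24 to the median of the other 9 genes was 1.10, and 0.95 with a pseudocount of 1.

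Replicate numbers are shared by the groups. Deviations of same-numbered libraries from their group means had correlations of 0.03 for replicate 1 and -0.13 for replicate 2. With 2 siCtrl libraries the siCtrl deviations mirror each other, so this check cannot tell whether same-numbered libraries share a batch or culture. With a replicate block, which leaves siEwsr1 replicate 3 without a partner, 1624 genes were called higher and 1603 lower. Of the 10 genes 3 were then called higher and 2 lower, of the 43 tested targets beyond them 4 and 8, and Trp53 had -0.043 (21.7% of all genes were called). Without 1 library at a time, 4 genes with small differences changed sign: Trp53 ran from -0.048 to 0.19 (-0.029 without siCtrl replicate 2), Cdkn1a from -0.076 to 0.048 (0.0097 without siEwsr1 replicate 2 and 0.037 without siCtrl replicate 1), Trp53inp1 from -0.031 to 0.16 and Zmat3 from -0.036 to 0.16. The causes were not tested. Scaling by library totals moved the median of all genes to -0.03, and no gene of the 10 changed direction under either scaling alternative. With 2 siCtrl libraries, differences under about 1.5-fold were often missed in simulation, which held no library lying apart from its group.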
